A study of Arabidopsis thaliana with 6 samples.

Results

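Direct RNA sequencing of *Arabidopsis thaliana* seedlings gave 503 isoforms that carry a running number such as novel32.t2 in place of a locus and a gene name, of 56591 isoforms in the deposited table. They were chosen by the identifier alone and are called unannotated isoforms here, while the other 56088 isoforms carry an annotated gene. The libraries come from 14 day old whole seedlings of *fio1-1*, *fio1-5* and Col-0, grown on MS medium in long days, with 1 library for each genotype. *fio1-1* is a chemically induced allele whose FIO1 protein lacks a short internal stretch, *fio1-5* is a CRISPR deletion allele in the same gene, and Col-0 is the wild type accession in whose background both alleles are studied. Neither mutant was compared with a rescued line here, and each is 1 line, so a difference of the line and a difference of the allele cannot be told apart. For each genotype there is an Illumina and a Nanopore sample in the labels but 1 column in the table, which was taken as Nanopore since the study describes the series as Nanopore data.

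FIO1 (FIONA1) is the plant relative of METTL16, an enzyme that places a methyl group on adenosines of RNA (m6A) and takes part in flowering control. In direct RNA sequencing a native poly(A) RNA strand is read from its tail, so that 1 read is 1 molecule. Reads that match no annotated gene are commonly joined into transcript models with running numbers, and here the first number stands for the gene and the second for the isoform. Such models are known to hold transcribed pseudogenes, transposable elements and noncoding RNAs, that is, gene copies without a working reading frame, mobile DNA and RNAs that encode no protein.

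The libraries hold 4351528 (*fio1-1*), 4682777 (*fio1-5*) and 4602813 (Col-0) rounded counts. The targeted gene *FIO1* had 17 counts in *fio1-1* and 30 in *fio1-5*, against 25 in Col-0, so its level does not set the mutants apart from the wild type, and a count over the whole gene does not check the deletions. The leaf genes *RBCS1A* and *CAB1*, which serve photosynthesis, had between 41644 and 255151 counts in every library. The seed storage genes *SESA1* and *CRU3* were also counted, with 874 and 3007 counts in *fio1-1* and 548 and 2114 in *fio1-5*, against 278 and 966 in Col-0. These seed genes were higher in both mutant libraries, and their part in the differences of unannotated isoforms was not tested. With whole seedlings, fewer cells of a type and less RNA per cell cannot be told apart.

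The table gives no chromosome, strand or position for any of the 503 isoforms. For 132 of them it lists a similar UniProt protein, and for 69 a Pfam domain, against 89.6% of annotated isoforms with annotation text of some kind. The proteins listed can be traced to 1 *Arabidopsis* locus for 48 isoforms, through a locus name, a clone name or a gene symbol. These 48 isoforms name 41 loci. In the RefSeq annotation of TAIR10.1, 38 of the 41 loci are pseudogenes, 14 of them transcribed pseudogenes, and the 38 are missing from the table as genes. Over the whole annotation the table holds 1 of 4849 pseudogene loci, 27444 of 27562 protein coding loci and 3480 of 3480 lncRNA loci. A UniProt entry states which protein the isoform resembles and is not a position, so the locus named is the nearest annotation and may not be where the RNA came from.

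Pseudogene loci named by the entries of some isoforms described below, picked for their differences between genotypes, are shown by their first 30 bases. The bases are on the annotated strand (TAIR10.1, RefSeq), in lower case, with an ATG in capitals where the annotated span begins with one.
AT1G43590 (novel32.t1 and novel32.t2), chr1:16414121-16414150, plus strand: ATGgcttttgtagtcaacgggaatgagtat
AT1G35612 (novel31.t1), chr1:13145643-13145672, plus strand: gagagatatcatatctcttccagagatttg
AT5G36270 (novel410.t1), chr5:14292912-14292941, plus strand: gaaaacaaaaacaacagaaatgggcatcga
AT5G49080 (novel440.t1), chr5:19892780-19892809, minus strand: ATGgggttaaggcagtttttggtttatgtc
AT1G34330 (novel30.t1), chr1:12528035-12528064, plus strand: taaacacaatccaaaaatatttctaagttt
AT2G06950 (novel144.t1), chr2:2863405-2863434, minus strand: ATGgaactctactctgttccttctctcaat
An ATG at the first base marks a span annotated from a start codon on, without leader sequence. It was present in 2414 of 3923 pseudogene loci (61.5%), in 286 of 926 transcribed pseudogene loci (30.9%) and in 14 of the 38 pseudogene loci named by unannotated isoforms (36.8%).

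The length of an isoform could be recovered, because count divided by TPM is proportional to the length minus 250 bases in all 3 libraries. For annotated isoforms of at least 800 bases with at least 100 counts, the implied length was within 5 bases of the RefSeq transcript for 99.4% in each library, and between 350 and 800 bases it was so for 97.6% to 97.8%. A length could be given for 245 unannotated isoforms. Their median was 949 bases, with quartiles at 584 and 1783 bases, and they reached from 355 to 7377 bases. Annotated isoforms had a median of 1638 bases (31760 isoforms). A further 41 of the 286 detected unannotated isoforms were shorter than 350 bases (14.3%), against 2.25% of detected annotated isoforms. The unannotated isoforms were thus the shorter group in these tables.

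For isoforms that name a pseudogene locus, the implied length was at the median 92% of the locus span (42 isoforms). It was within 10% of the span in 15 isoforms and longer than the span in 15. The closest of those described below was novel410.t1, with 909 bases beside 917 bases of AT5G36270. Both isoforms whose entry names AT1G43590 were longer than its annotated 507 bases, novel32.t1 with 1224 bases and novel32.t2 with 600 bases. The retroelement isoform novel144.t1, with 1783 bases, was 42.4% as long as AT2G06950 (4209 bases).

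**Figure D1:**
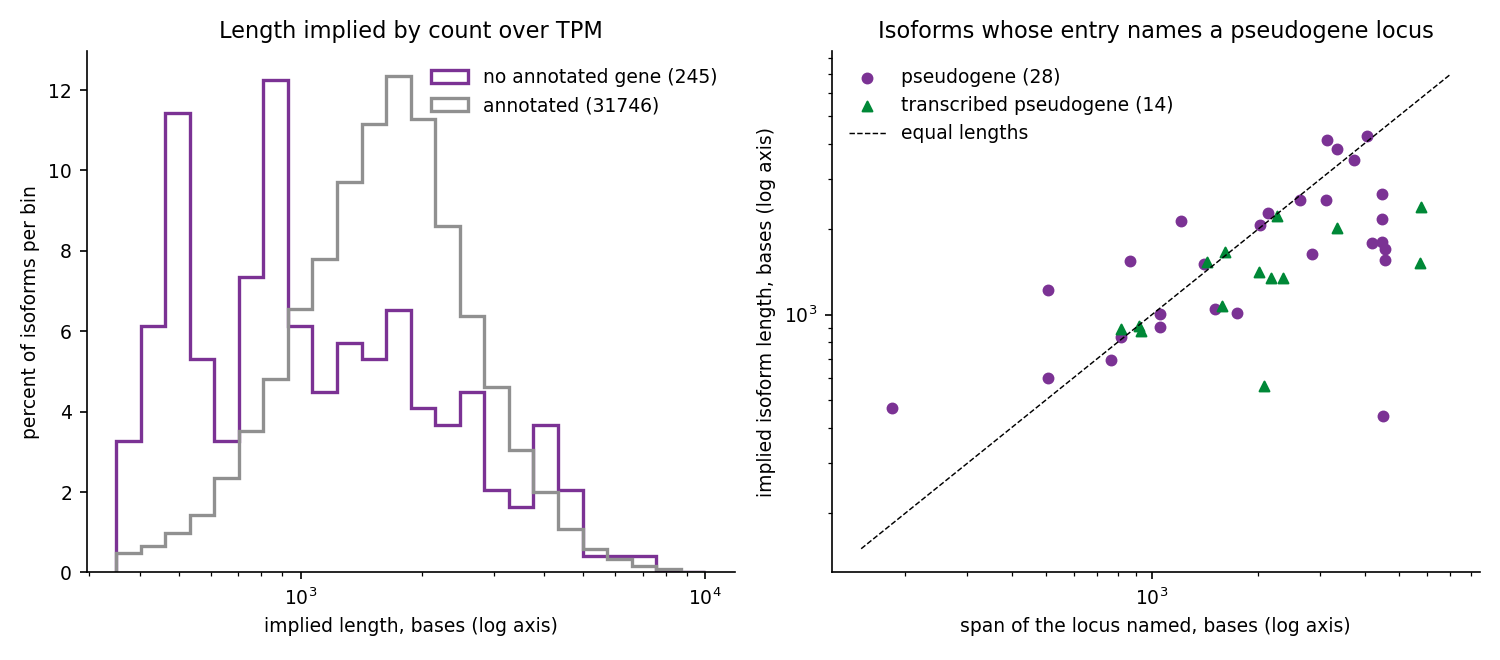
Left, the distribution of implied lengths (log axis) of detected isoforms with and without an annotated gene, in percent of isoforms per bin. Right, the implied length of each isoform whose UniProt entry names a pseudogene locus against the span of that locus (both log axes), with the dashed line at equal lengths; the unannotated isoforms have a median of 949 bases against 1638 bases for annotated ones, and 15 of the 42 points lie above the line.

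The 503 isoforms had 7695 counts in *fio1-1* and 7888 in *fio1-5*, against 8153 in Col-0. Scaled to library size with TMM factors, as CPM (counts per 1000000 of the scaled library), this is 1793 CPM in *fio1-1* and 1703 CPM in *fio1-5*, against 1728 CPM in Col-0. The log2 ratio of the sums was 0.05 for *fio1-1* against Col-0 (95% interval 0.01 to 0.10) and -0.02 for *fio1-5* against Col-0 (-0.07 to 0.02). These intervals, like all others here, are exact intervals for counting error only, since without replicates the spread between plants is unknown. With total count scaling the first of these log2 ratios was -0.0024, so the summed level of all 503 isoforms was close to equal in the 3 libraries.

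Of the 503 isoforms, 217 had no count in any library (43.1%, against 42.1% of annotated isoforms), and 195 were counted in all 3 libraries. At least 20 counts summed over the libraries were found for 120 (23.9%, against 30.7% of annotated isoforms), and at least 100 for 40. An isoform at 0 in a library may still have a level of up to 3 counts, or 0.699 CPM in *fio1-1* and 0.648 CPM in *fio1-5*, against 0.636 CPM in Col-0. The median summed count of a detected isoform was 13, against 25 for annotated isoforms. The 2 most counted isoforms took 31.9% of all counts of the 503, and the 10 most counted took 54.1%. Most of the RNA of these models thus came from a small number of them.

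The most counted isoform was novel147.t1, of 1138 bases and without any annotation text, with 1302 counts in *fio1-1* and 1436 in *fio1-5*, against 1572 in Col-0. Its level was nearly the same in the 3 libraries, with log2 ratios of -0.13 (-0.24 to -0.03) in *fio1-1* and -0.10 (-0.21 to 0.00) in *fio1-5* against Col-0. novel336.t1, of 1035 bases and also without text, had 896 counts in *fio1-1* and 958 in *fio1-5*, against 1412 in Col-0. Both mutants lay below Col-0, by log2 ratios of -0.52 (-0.64 to -0.40) and -0.53 (-0.65 to -0.41). novel40.t1, of 742 bases, was higher in the mutants, with 378 counts in *fio1-1* and 453 in *fio1-5*, against 301 in Col-0, log2 ratios of 0.46 (0.24 to 0.69) and 0.62 (0.40 to 0.83).

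novel316.t1, of 470 bases, had 489 counts in *fio1-1* and 404 in *fio1-5*, against 143 in Col-0. It was the only one of the 10 most counted isoforms past 2-fold in both mutants, 3.76-fold higher in *fio1-1* (log2 ratio 1.91, 1.64 to 2.19) and 2.88-fold higher in *fio1-5* (1.52, 1.25 to 1.81). Its UniProt entry is an uncharacterized protein of another *A. thaliana* accession. novel144.t1 lists a retroelement polyprotein with gag and integrase domains, the parts of a retrotransposon that package its RNA and insert its DNA copy, and had 165 counts in *fio1-1* and 229 in *fio1-5*, against 93 in Col-0. It was 1.95-fold higher in *fio1-1* (log2 ratio 0.96, 0.59 to 1.35) and 2.51-fold higher in *fio1-5* (1.32, 0.97 to 1.69).

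The other 5 of the 10 most counted also stayed within 2-fold of Col-0 in both mutants. novel163.t1, whose entry names the transcribed pseudogene AT2G38980, had 122 counts in *fio1-1* and 117 in *fio1-5*, against 177 in Col-0, with log2 ratios of -0.40 (-0.74 to -0.06) and -0.57 (-0.92 to -0.23). novel34.t1, of 3572 bases with a reverse transcriptase domain, the enzyme that copies RNA into DNA, had 133 counts in *fio1-1* and 155 in *fio1-5*, against 121 in Col-0, log2 ratios of 0.27 (-0.09 to 0.64) and 0.38 (0.03 to 0.74). The 3 others, novel263.t1, novel414.t1 and novel149.t1, had intervals that include equal levels in both comparisons with Col-0.

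**Figure D2:**
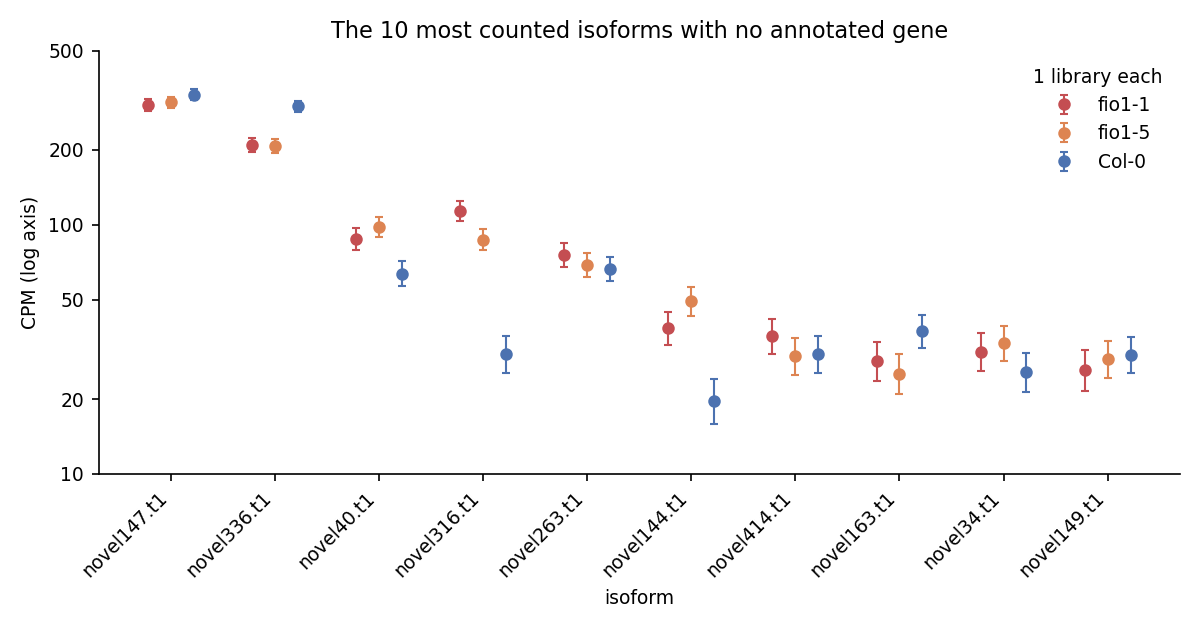
Level in CPM (log axis) of the 10 most counted isoforms with no annotated gene in *fio1-1*, *fio1-5* and Col-0, 1 library each, with exact 95% Poisson intervals that cover counting error only. Both mutant points of novel316.t1, novel144.t1 and novel40.t1 lie above Col-0, and both of novel336.t1 below it, without overlap of the intervals.

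For ratios between genotypes, the 120 isoforms with at least 20 summed counts were compared as part of all 17336 isoforms that passed this limit. The log2 ratio has 0.5 counts added. In *fio1-1* against Col-0, 19 of the 120 were at least 2-fold higher (15.8%), where the share over all isoforms was 10.1%, and 7 were at least 2-fold lower (5.83%), where it was 5.2%. In *fio1-5* against Col-0, 14 were at least 2-fold higher (11.7%) beside 7.93% of all isoforms, and 11 at least 2-fold lower (9.17%) beside 5.23%. The median log2 ratio of the 120 was 0.10 in *fio1-1* and 0.14 in *fio1-5*, beside 0.00 over all isoforms in both. The 2 comparisons share the Col-0 library.

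Low counts alone give wide ratios, and 80 of the 120 have fewer than 100 summed counts. Within 20 to 99 summed counts, 16 of 80 were at least 2-fold higher in *fio1-1* (20%, beside 16.8% of all isoforms in that range) and 6 lower (7.5%, beside 10.9%). In *fio1-5*, 10 of the 80 were higher (12.5%, beside 14.6%) and 7 lower (8.75%, beside 10.5%). With 100 or more but under 1000 summed counts, 2 of 36 were higher in *fio1-1* (5.56%, beside 6.33%) and 1 lower (2.78%, beside 1.97%), while in *fio1-5* 3 were higher (8.33%, beside 4.26%) and 4 lower (11.1%, beside 2.34%). Of these shares under 1000 counts, that of the 4 of 36 lower isoforms in *fio1-5* stood farthest from its background. With 1000 or more summed counts there were 4 unannotated isoforms, of which novel316.t1 alone was past 2-fold, which makes 25% of them higher in *fio1-1* (beside 4.69% of all isoforms) and in *fio1-5* (beside 2.43%), and none was lower (beside 0.739% and 0.869%).

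**Figure D3:**
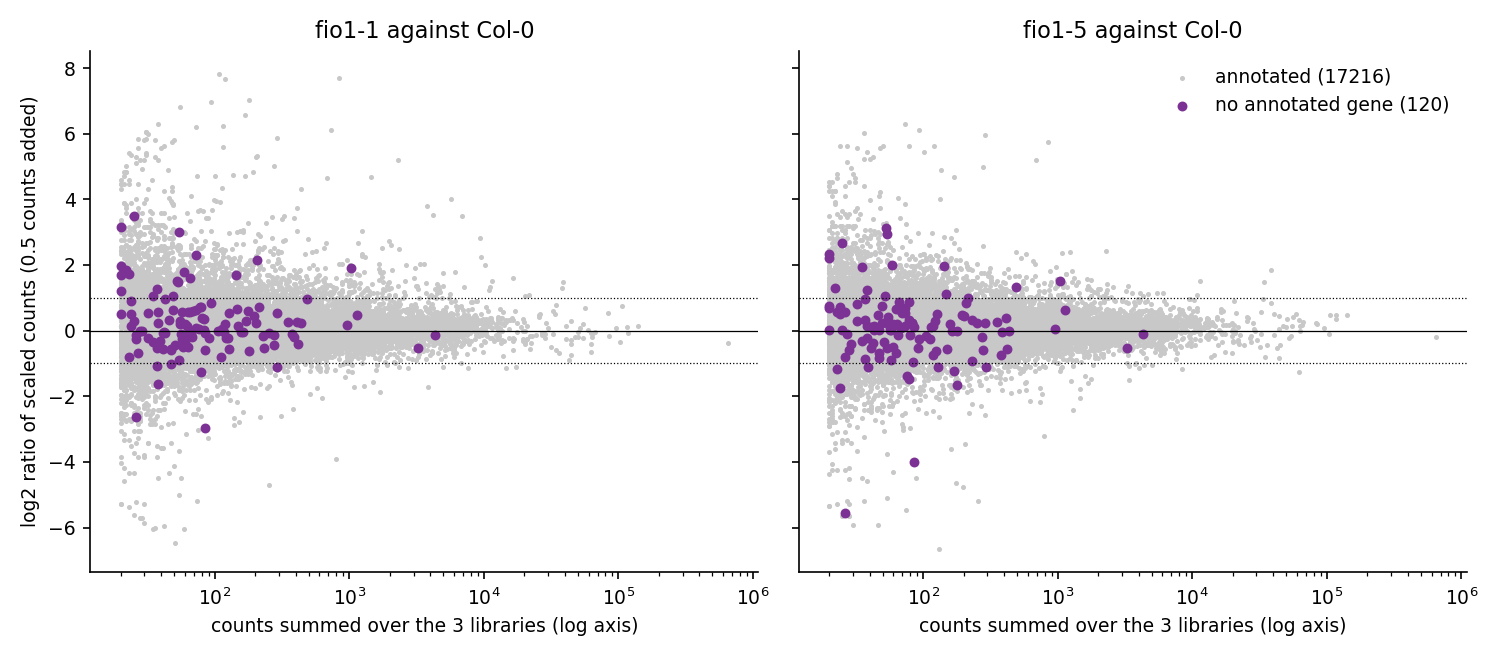
Log2 ratio against Col-0 (0.5 counts added) of every isoform with at least 20 counts, against its counts summed over the 3 libraries (log axis), for *fio1-1* and *fio1-5*; grey points are the 17216 annotated isoforms, purple points the 120 without an annotated gene, and dotted lines mark 2-fold. The purple points spread most at low counts, as the grey ones do, and those under 100 counts make up 80 of the 120.

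In both mutants at once, 11 of the 120 were at least 2-fold higher than in Col-0 (9.17%, beside 5.45% of all isoforms) and 4 at least 2-fold lower (3.33%, beside 1.81%). Of these, 9 of the higher and 3 of the lower had 20 to 99 summed counts, where ratios are widest. The share of all isoforms in that range was not computed for both mutants at once. Intervals clear of equal levels in both mutants were found for 9 of the 120 above Col-0 (7.5%, beside 10.8% of all isoforms). They were found for 8 below Col-0 (6.67%, beside 7.38%). Both shares lie under those of all isoforms, which were not matched to the 120 for depth. Those described next have the largest differences shared by both mutants, a choice made on the ratios, so that their direction is a description.

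Farthest below Col-0 in both mutants were the isoforms of novel32, which list a plant transposon protein with a DDE endonuclease domain, the part of a transposase that cuts DNA. novel32.t1 had 8 counts in *fio1-1* and 4 in *fio1-5*, against 73 in Col-0. It was 8.3-fold lower in *fio1-1* (log2 ratio -2.98, -4.32 to -1.999) and 17.9-fold lower in *fio1-5* (-4.00, -6.08 to -2.75), so the intervals of both mutants lie far below Col-0. The shorter novel32.t2 had 3 counts in *fio1-1* and 0 in *fio1-5*, against 23 in Col-0. With its 0 counts in *fio1-5* set to the limit of 3 counts, the ratio is 7.53-fold below Col-0. The exact log2 interval in *fio1-5* has no lower end and an upper end of -2.50, so 7.53-fold is not a bound. In *fio1-1* its 3 counts give a ratio 6.97-fold below Col-0 with a log2 interval of -5.18 to -1.07. The 2 models share a gene number and the locus named, so they are not independent of each other. Both passed the limit on summed counts only through their Col-0 counts, which favours ratios below Col-0.

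novel31.t1, which resembles an uncharacterized protein of the pseudogene locus AT1G35612, had 65 counts in *fio1-1* and 71 in *fio1-5*, against 156 in Col-0. Both mutants had less than the wild type, 2.18-fold in *fio1-1* (log2 ratio -1.12, -1.57 to -0.70) and 2.16-fold in *fio1-5* (-1.10, -1.53 to -0.70). novel41.t1, of 1628 bases and without text, had 17 counts in *fio1-1* and 16 in *fio1-5*, against 46 in Col-0, log2 ratios of -1.28 (-2.19 to -0.47) and -1.47 (-2.42 to -0.65). The next by rank, novel121.t1 (8, 10 and 19 counts in *fio1-1*, *fio1-5* and Col-0) and novel53.t1 (6, 5 and 12 counts), both with retrotransposon domains, had intervals that include equal levels.

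Among those higher in both mutants, novel410.t1 lists DHAR4, a glutathione S-transferase of the dehydroascorbate reductase type, which returns oxidized vitamin C to its active form. It had 25 counts in *fio1-1* and 26 in *fio1-5*, against 3 in Col-0. The 3 counts of Col-0 leave the size open, 9.16-fold in *fio1-1* (log2 interval 1.48 to 5.57) and 8.83-fold in *fio1-5* (1.44 to 5.51), and both intervals lie above equal levels. RefSeq annotates AT5G36270, the locus of this entry, as a transcribed pseudogene on chromosome 5, from 14292912 to 14293828.

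novel440.t1 lists EXT11, an extensin, one of the structural glycoproteins of the plant cell wall, and had 54 counts in *fio1-1* and 71 in *fio1-5*, against 18 in Col-0. It was 3.3-fold higher in *fio1-1* (log2 ratio 1.69, 0.93 to 2.58) and 4.02-fold higher in *fio1-5* (1.98, 1.24 to 2.84). Its 2071 bases compare with a span of 2026 bases of AT5G49080. novel30.t1 lists a peroxidase and names the transcribed pseudogene AT1G34330, and had 23 counts in *fio1-1* and 29 in *fio1-5*, against 7 in Col-0, log2 ratios of 1.78 (0.59 to 3.32) and 2.00 (0.86 to 3.51). Peroxidases of plants use hydrogen peroxide to oxidize small molecules, among them wall phenolics.

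The 3 remaining isoforms of this rank were near the limit of detection in Col-0. novel155.t1, a retroelement polyprotein, had 15 counts in *fio1-1* and 9 in *fio1-5*, against 1 in Col-0, which gives log2 intervals of 1.34 to 9.44 and 0.35 to 8.65. novel44.t1, with a retrotransposon gag domain, had 12, 7 and 1 counts in the same order, and its interval in *fio1-5* (-0.13 to 8.33) includes equal levels. novel262.t1, an uncharacterized protein of under 350 bases, had 7, 11 and 2 counts, and its interval in *fio1-1* (-0.45 to 5.25) does so too.

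**Figure D4:**
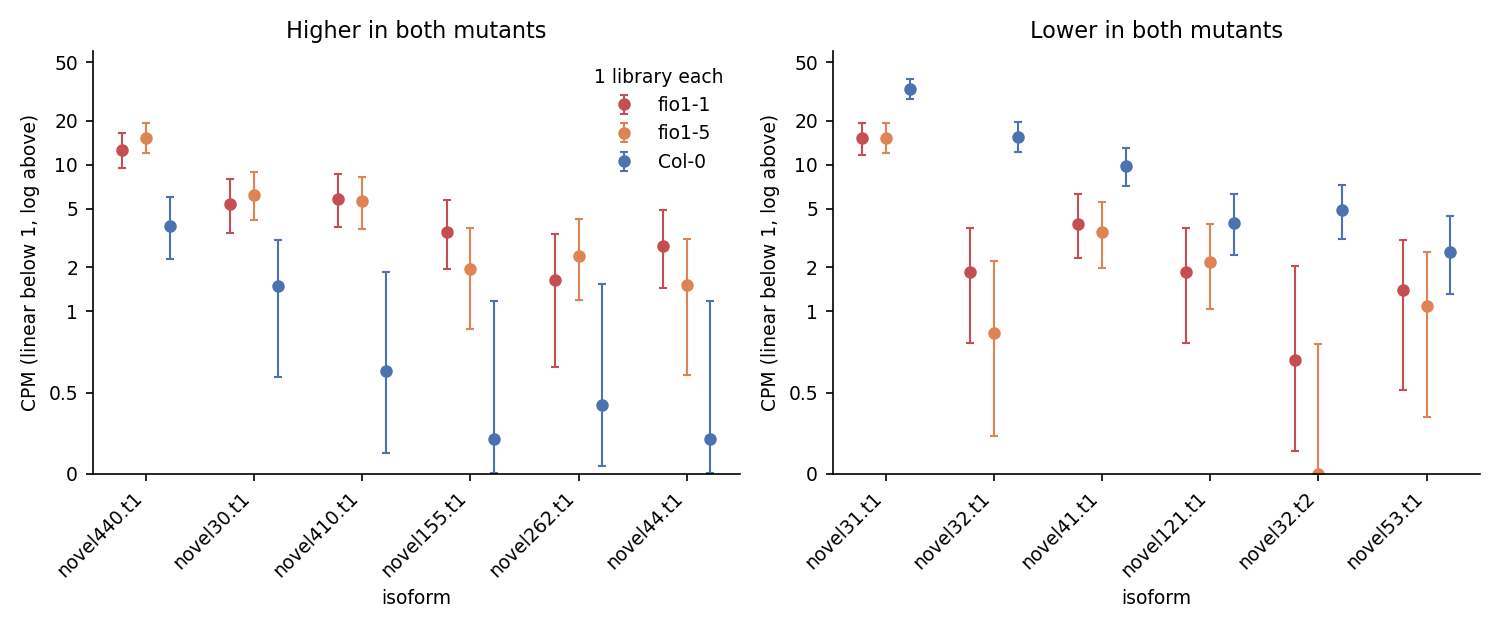
Level in CPM (linear below 1, log above) in *fio1-1*, *fio1-5* and Col-0 of the 6 isoforms farthest above Col-0 (left) and the 6 farthest below it (right) in both mutants, 1 library each, with exact 95% Poisson intervals. For 7 of the 12, novel440.t1, novel410.t1, novel30.t1, novel31.t1, novel41.t1, novel32.t1 and novel32.t2, neither mutant's interval overlaps that of Col-0. The 12 were ranked on these same ratios, so the separation is in part a result of the choice. For novel32.t1 and novel32.t2 the limit on summed counts adds to this, since only their Col-0 counts took them past it.

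The unannotated isoforms fall into 3 groups by their annotation text: 43 with words for transposons or their domains, 89 with another protein entry, and 371 with none. Detection differed between them. 41 of the 43 transposon isoforms were counted at least once, as were 83 of the 89 with another protein entry, but 162 of the 371 without text. The transposon isoforms were the longest, with a median of 2027 bases (40 isoforms with a length), against 1359 bases for those with another protein entry (82) and 760 bases for those without text (123).

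Of the 43 transposon isoforms, 28 had at least 20 summed counts. In *fio1-1*, 4 of the 28 were at least 2-fold higher (14.3%, beside 10.1% of all isoforms) and 4 lower than in Col-0 (14.3%, beside 5.2%). In *fio1-5*, 5 were higher (17.9%, beside 7.93%) and 3 lower (10.7%, beside 5.23%). The 118 annotated isoforms with the same words and at least 20 summed counts had 9.32% higher and 4.24% lower in *fio1-1*, and 9.32% each way in *fio1-5*. They were not matched to the 28 for depth. Of the 28, 21 had fewer than 100 summed counts, the range in which ratios are widest. The median log2 ratio of the 28 was 0.24 in *fio1-1* and 0.27 in *fio1-5*. The medians of the 118 annotated isoforms were -0.05 and -0.20. Transposon isoforms thus lay on both sides of Col-0, with novel32 lower and novel144.t1 higher in the mutants. Their summed counts were 937 in *fio1-1* and 1105 in *fio1-5*, against 956 in Col-0, a log2 ratio of 0.11 (-0.02 to 0.24) in *fio1-1* and 0.24 (0.11 to 0.36) in *fio1-5*. Without novel144.t1 the sums were 772, 876 and 863, with log2 ratios of -0.02 (-0.17 to 0.12) and 0.05 (-0.09 to 0.19). Both of these intervals include equal levels. The sums still hold the isoforms of novel32, far lower in both mutants, with 11, 4 and 96 counts in that order. Whether the remaining transposon isoforms were higher in *fio1-5* with novel32 left out as well was not tested.

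By domain, 11 isoforms list the gag polypeptide of copia-type elements, with 318 counts in *fio1-1* and 354 in *fio1-5*, against 194 in Col-0 in sum, of which novel144.t1 held 165, 229 and 93. Another 11 list a reverse transcriptase, with 222, 263 and 207 counts in that order. The 3 with a MuDR transposase domain, of the Mutator family of DNA transposons, had 155, 177 and 211 counts. Among these, novel232.t1 names MUG1 (AT3G04605), a transposase gene that plants have kept for a host function, and had 72 counts in *fio1-1* and 97 in *fio1-5*, against 84 in Col-0, log2 ratios of -0.08 (-0.56 to 0.39) and 0.23 (-0.20 to 0.67). RefSeq lists this locus as a pseudogene. novel232.t1 was picked for this role with its values in view.

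Of the 89 isoforms with another protein entry, 45 passed the limit on counts. In *fio1-1*, 9 were at least 2-fold higher (20%, beside 10.1% of all isoforms) and 2 lower (4.44%, beside 5.2%). In *fio1-5*, 6 were higher (13.3%, beside 7.93%) and 6 lower (13.3%, beside 5.23%). The medians were -0.01 and 0.00, and 28 of the 45 had fewer than 100 summed counts. Their summed counts were 2214 in *fio1-1* and 2012 in *fio1-5*, against 1942 in Col-0, a log2 ratio of 0.33 (0.24 to 0.41) in *fio1-1* and 0.08 (-0.01 to 0.17) in *fio1-5*. Without novel316.t1 these ratios were 0.08 (-0.02 to 0.17) and -0.14 (-0.23 to -0.04). The 371 isoforms without text had 4544, 4771 and 5255 counts in *fio1-1*, *fio1-5* and Col-0. Their log2 ratios of summed counts were -0.07 (-0.13 to -0.02) in *fio1-1* and -0.11 (-0.17 to -0.06) in *fio1-5* against Col-0. Without novel147.t1 these were -0.05 (-0.12 to 0.02) and -0.12 (-0.18 to -0.05). At least 2-fold higher than in Col-0 were 6 of 47 in *fio1-1* (12.8%, beside 10.1% of all isoforms) and 3 in *fio1-5* (6.38%, beside 7.93%). At least 2-fold lower were 1 in *fio1-1* (2.13%, beside 5.2%) and 2 in *fio1-5* (4.26%, beside 5.23%), so that these shares lay near those of all isoforms.

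Of the 45 isoforms that name a pseudogene locus, 43 were detected and 31 had at least 20 summed counts. They held 1110 counts in *fio1-1* and 1253 in *fio1-5*, against 1206 in Col-0, so that their summed level was close to equal, with log2 ratios of 0.02 (-0.10 to 0.14) and 0.08 (-0.03 to 0.20). At least 2-fold higher than in Col-0 were 7 of the 31 in *fio1-1* (22.6%, beside 10.1% of all isoforms) and 7 in *fio1-5* (22.6%, beside 7.93%). At least 2-fold lower were 5 in *fio1-1* (16.1%, beside 5.2%) and 3 in *fio1-5* (9.68%, beside 5.23%). With 20 to 99 summed counts, where 22 of the 31 lie, the shares of all isoforms were 16.8% higher and 10.9% lower in *fio1-1*, and 14.6% and 10.5% in *fio1-5*. novel32 and novel31.t1 lie at the lower end of this group, and novel410.t1, novel155.t1, novel30.t1 and novel440.t1 at the upper end.

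**Figure D5:**
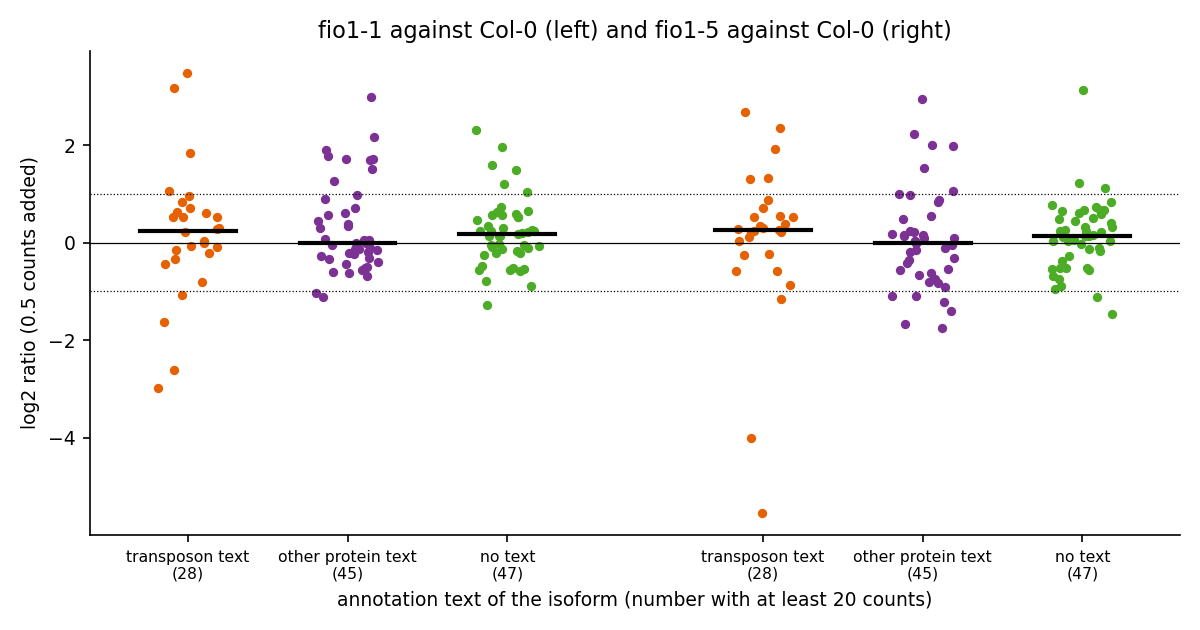
Log2 ratio (0.5 counts added) of each unannotated isoform with at least 20 counts, for *fio1-1* against Col-0 (left 3 columns) and *fio1-5* against Col-0 (right 3 columns), by annotation text; bars are medians, dotted lines mark 2-fold and the horizontal scatter is for display. The 28 transposon isoforms reach from the lowest values, those of novel32, to above 2, and their medians are 0.24 and 0.27.

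The 2 mutants were also compared directly. In *fio1-5* against *fio1-1*, 4 of the 120 isoforms were at least 2-fold higher (3.33%, beside 3.69% of all isoforms) and 11 at least 2-fold lower (9.17%, beside 5.59%). The median log2 ratio was -0.03. In the range of 20 to 99 summed counts, 4 of 80 were higher (5%, beside 8.64%) and 8 lower (10%, beside 10.1%). From 100 to under 1000 summed counts, 0 of 36 were higher (beside 0.734%) and 3 lower (8.33%, beside 2.98%), and of the 4 isoforms with more counts 0 were past 2-fold (beside 0.348% higher and 2.13% lower).

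The largest difference between the alleles with good depth was in novel431.t1, with 20 counts in *fio1-5* and 92 in *fio1-1*, beside 66 in Col-0. It was 4.97-fold lower in *fio1-5* than in *fio1-1* (log2 ratio -2.28, -3.09 to -1.60), and Col-0 lay between the 2 mutants. Its entry names AT3G27906, an uncharacterized protein coding locus on chromosome 3 (10353952 to 10356625, minus strand) that the table also holds as a gene. That gene had 21 counts in *fio1-5* and 30 in *fio1-1*, beside 43 in Col-0. These are counts before scaling, and no ratio or interval was computed for them. The isoform has 1731 bases, and how reads were divided between it and the annotated gene is not given in the sources used here.

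novel156.t1, with leucine-rich repeat domains of the kind found in plant receptors, had 2 counts in *fio1-5* and 14 in *fio1-1*, beside 8 in Col-0, a log2 interval of -6.10 to -0.80. novel32.t2, at 0 counts in *fio1-5* and 3 in *fio1-1*, is listed by its rank alone, since both values are at or under the limit of detection. In the other direction, novel426.t1, of 467 bases and without text, had 38 counts in *fio1-5* and 11 in *fio1-1*, beside 4 in Col-0. It was 3.2-fold higher in *fio1-5* than in *fio1-1* (log2 ratio 1.64, 0.68 to 2.80). novel256.t2, a transposase of the hAT family (15 counts in *fio1-5* and 5 in *fio1-1*, beside 18 in Col-0), and novel258.t1 (16 and 7, beside 9) had intervals that include equal levels.

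Intervals between the alleles were clear of equal levels for 5 isoforms higher in *fio1-5* than in *fio1-1* (4.17%, beside 10.9% of all isoforms) and 11 lower (9.17%, beside 13.4%), and 2 and 7 of these were past 2-fold. The shares over all isoforms are not matched for depth here either. Beside novel431.t1, novel156.t1 and novel426.t1, the 6 others past 2-fold are described next, picked with their values in view. novel59.t1, of 355 bases, had 53 counts in *fio1-5* and 124 in *fio1-1*, beside 30 in Col-0, a log2 ratio of -1.33 (-1.83 to -0.86) between the mutants. novel120.t1 had 28 counts in *fio1-5* and 75 in *fio1-1*, beside 67 in Col-0 (-1.51, -2.21 to -0.89). novel411.t1 had 16 counts in *fio1-5* and 47 in *fio1-1*, beside 10 in Col-0 (-1.63, -2.58 to -0.82). In novel120.t1 the *fio1-1* library resembled Col-0, and in novel411.t1 and novel59.t1 it stood apart from both others. In *fio1-5*, novel59.t1 was also above Col-0 (log2 ratio 0.84, 0.18 to 1.54). novel24.t1, with another protein entry, had 12 counts in *fio1-5* and 31 in *fio1-1*, beside 33 in Col-0 (-1.44, -2.58 to -0.48). novel409.t1, a transposon isoform, had 22 counts in *fio1-5* and 44 in *fio1-1*, beside 27 in Col-0 (-1.09, -1.92 to -0.34). Higher in *fio1-5* was novel61.t1, with 33 counts in *fio1-5* and 15 in *fio1-1*, beside 18 in Col-0 (1.00, 0.11 to 2.01).

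Among the 481 gene numbers, 11 have more than 1 isoform (33 isoforms). In several of these 1 isoform held nearly all counts, such as novel336.t1 with 100% of 896 counts in *fio1-1* and 99.9% of 959 in *fio1-5*, against 99.9% of 1414 in Col-0. novel67 divides its counts among 7 isoforms of 4038 to 4435 bases. Its main isoform novel67.t5 took 46.2% of 184 counts in *fio1-1* (exact binomial interval 38.8% to 53.7%), 44.2% of 197 in *fio1-5* (37.1% to 51.4%) and 46.6% of 219 in Col-0 (39.8% to 53.4%). These shares differed by less than their counting error. novel444.t4 took 60% of 20 counts in *fio1-1* (36.1% to 80.9%) and 52.4% of 21 in *fio1-5* (29.8% to 74.3%), against 100% of 9 in Col-0 (66.4% to 100%). The shorter novel444.t2 held 7 of the 20 and 9 of the 21, against 0 of the 9 in Col-0 (0% to 33.6%). novel423.t3 took 93.5% of 31 counts in *fio1-1* (78.6% to 99.2%) and 96.7% of 30 in *fio1-5* (82.8% to 99.9%), against 75.8% of 33 in Col-0 (57.7% to 88.9%). In both genes the intervals of the mutants overlap those of Col-0. In novel32, novel32.t1 took 8 of 11 counts in *fio1-1* and 4 of 4 in *fio1-5*, against 73 of 96 in Col-0, so both isoforms were low in both mutants and a change of their balance was not detectable at this depth.

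The deposited TPM ranks the isoforms differently, because its effective length nears 0 for short models. In Col-0 the highest TPM value of all 503 was that of novel459.t1, of under 350 bases, with 963 TPM in *fio1-1* and 924 in *fio1-5*, against 928 in Col-0 from only 40, 41 and 38 counts. novel201.t1 reached 222, 162 and 268 TPM in the same order from 5, 4 and 6 counts, and novel43.t1 295, 308 and 217 TPM from 22, 25 and 16. By contrast novel147.t1, with the most counts, had 215, 218 and 263 TPM, and novel336.t1 168, 164 and 267 TPM. Per length, then, 3 short models rank with the 2 most counted, on a small number of reads.

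An estimated count that is not whole arises where a counter divides a read among several models. Among genes with 1 isoform, 45.7% of 256 detected unannotated isoforms had such a value in at least 1 library (beyond 0.001), against 72.5% of 12275 annotated isoforms. Of the isoforms described here, novel431.t1, novel155.t1, novel44.t1 and novel32.t2 had whole counts throughout, while novel32.t1, novel144.t1, novel316.t1 and novel410.t1 did not. Counts that are not whole are uncertain as to the model their reads came from. Transposons and pseudogenes can have near-identical copies elsewhere in the genome, and the part of such copies in these counts was not tested.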

How the data were processed

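Seedlings of *fio1-1*, *fio1-5* and Col-0 were compared with 1 library each, so no test was made and no p-value is given. As the study describes it, the authors base called Nanopore reads with Guppy, filtered and corrected them, and mapped them with minimap2 (2.17-r941 in the submitters' processing notes). Per isoform the authors deposited an estimated count without normalization, and a TPM value, which they scaled by an effective length and to 1000000 per library. The tool that built the isoforms and its genome build are not given in the sources used here.

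Counts were rounded and scaled with TMM factors over all isoforms (edgeR 4.0.16, R 4.3.3). Log2 ratios have 0.5 counts added, intervals are exact Clopper-Pearson intervals at 95% of the scaled count ratio without addition, and counts have Poisson intervals. Isoforms with at least 20 summed counts were compared. The rest was done in Python 3.11.15 (matplotlib 3.10.9, scipy 1.17.1, pandas 2.3.3, numpy 2.4.6). Alternatives were other scalings (library totals, DESeq2 1.42.0 size factors, gene sums), TPM, and other limits. In simulated data, 200 of 17336 isoforms were changed 4-fold. Of these, 97.5% for *fio1-1* and 99% for *fio1-5*, each against Col-0, and 96.5% between the mutants passed the 2-fold limit. Of the unchanged ones, 3.22%, 2.96% and 3.34% did so. The simulated counts held Poisson counting error only, without spread between plants or libraries, and isoforms of all depths were pooled. These shares are therefore not rates of false calls for the real libraries.

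Isoforms were named by rule: the 10 most counted, the 6 farthest above and below Col-0 in both mutants, the 3 highest and lowest between the mutants, those at 0 in 1 genotype with at least 20 counts in another, and the 5 highest by TPM in Col-0. The members and lists were chosen with earlier results of these data known. Raw reads, m6A calls and Illumina libraries were not analysed here.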

Additional observations from a re-analysis of the deposited data

Results flagged for a closer look

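novel431.t1 stands out because the 2 mutants lie on opposite sides of Col-0, with intervals clear of equal levels in both. It had 92 counts in *fio1-1* and 20 in *fio1-5*, against 66 in Col-0, which gives a log2 ratio against Col-0 of 0.61 (0.14 to 1.09) in *fio1-1* and -1.67 (-2.50 to -0.96) in *fio1-5*. The log2 ratio of *fio1-5* against *fio1-1* was -2.28. With 1 library per genotype the difference between the mutants was not tested beyond counting error.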

How the results depend on the processing

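There was no replicate to leave out, and no paired analysis was possible because each genotype has 1 column. Under the 5 alternatives tried for each of the 30 named isoforms, no ratio of at least 2-fold changed sign, and 446 of 450 values stayed within the interval given. Of 185 values that were at least 2-fold as reported, 10 were under 2-fold in an alternative, 6 with TPM and 4 with 2 counts added. They belong to novel32.t1, novel256.t2 and novel258.t1 between the mutants, novel121.t1 in *fio1-1*, and novel156.t1 and novel53.t1 in *fio1-5*, and the farthest moved was novel156.t1 (-0.70 with TPM, -1.74 as reported). TPM shifts the median of all tested isoforms to -0.14 in *fio1-1* and -0.15 in *fio1-5* against Col-0. The low-count limit and the cutoff set the numbers of isoforms past 2-fold (19 higher and 7 lower in *fio1-1*, 14 and 11 in *fio1-5*, 4 and 11 in *fio1-5* against *fio1-1*). With no limit they were 68 and 54, 57 and 58, and 55 and 61. With at least 100 counts they were 3 and 1, 4 and 4, and 0 and 3. With a 4-fold cutoff they were 5 and 2, 6 and 2, and 0 and 3. Among members with whole counts, a choice made after seeing the data, they were 9 and 3, 4 and 5, and 3 and 7, and the medians were 0.33 in *fio1-1* and 0.24 in *fio1-5*. For *fio1-5* against *fio1-1*, TPM left 1 higher isoform and 2 added counts left 2. The median in *fio1-5* against Col-0 was -0.027 with TPM and 0.021 with no limit. The log2 ratio of the summed level in *fio1-1* against Col-0 was -0.0024 with total counts and 0.13 with TPM. It was -0.073 in *fio1-5* against Col-0 with total counts, and -0.17 in *fio1-5* against *fio1-1* with TPM. As a share of the library, the 503 isoforms held 0.434% (*fio1-1*), 0.387% (*fio1-5*) and 0.396% (Col-0) of TPM, beside 0.177%, 0.168% and 0.177% of counts, because the TPM length correction raises short models. The cause of the other shifts was not tested.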
